A study of Mus musculus with 6 samples.

Results

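The genes described here are cyclins of the core cell cycle and the kinases they switch on: Ccnd1, Ccnd2, Ccnd3, Ccne1, Ccne2, Ccna2, Ccnb1, Ccnb2, Cdk1 and Cdk2. They were taken from the table of normalised values by gene symbol, which found 10 of 10 names among 16862 genes, and all 10 passed the filter on low values. RNA was sequenced from gonads of C57BL/6 male mouse embryos at E13.5 (days of gestation). There were 3 libraries from embryos that lack both prostaglandin D synthases, L-Pgds and H-Pgds (L/H-Pgds-/-, here KO; libraries 5, 7 and 8), and 3 libraries from wild-type embryos (WT; libraries 1, 3 and 4). The labels describe the embryos as littermates but give no litter for any of them; 1 library is treated as 1 embryo, and the design of the alleles is not stated. The gonad was taken whole, with germ cells, Sertoli cells and interstitial cells together.

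Cyclins are made and destroyed in turn as a cell divides, and each binds a kinase that is inactive without it. D-type cyclins respond to growth signals and act with Cdk4 and Cdk6 on the retinoblastoma proteins in G1. E-type cyclins with Cdk2 carry the cell into DNA synthesis, Ccna2 acts through S phase and G2 with Cdk2 and Cdk1, and B-type cyclins with Cdk1 drive mitosis. In the fetal testis the germ cells leave the cell cycle around this stage and arrest, while Sertoli cells and interstitial cells go on dividing.

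Transcription of the mitotic genes depends, as background, on CCAAT boxes bound by NF-Y and on the cell cycle genes homology region (CHR), and that of genes of the G1/S transition on E2F sites. Promoters (250 bases before to 50 after a start site) were read from a table of RefSeq promoters on build GRCm38.p6, in which 6 of the 10 genes matched; Ccnd1, Ccnd2, Ccne2 and Ccna2 are named only. The motifs searched on both strands were CCAAT, the CHR letters TTTGAA, and the E2F letters TTTCCCGC, TTTCGCGC, TTTGCCGC and TTTGGCGC. The 4 promoters below are shown because 3 of them belong to the mitotic genes, which are described together below, and the other to Ccne1, a gene of the G1/S transition. Capitals mark motif matches, and no matches overlap.
Ccne1: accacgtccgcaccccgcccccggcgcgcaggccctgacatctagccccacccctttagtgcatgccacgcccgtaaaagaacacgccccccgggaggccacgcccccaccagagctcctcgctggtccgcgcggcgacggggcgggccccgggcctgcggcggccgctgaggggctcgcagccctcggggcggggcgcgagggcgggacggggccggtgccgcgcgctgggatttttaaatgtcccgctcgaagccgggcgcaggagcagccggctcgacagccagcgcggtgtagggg
Ccnb1: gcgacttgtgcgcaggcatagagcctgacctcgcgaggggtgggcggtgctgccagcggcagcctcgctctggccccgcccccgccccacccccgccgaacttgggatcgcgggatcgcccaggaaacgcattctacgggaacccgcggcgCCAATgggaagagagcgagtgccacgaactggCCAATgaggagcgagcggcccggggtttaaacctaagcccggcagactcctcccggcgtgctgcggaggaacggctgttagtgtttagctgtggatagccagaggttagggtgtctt
Ccnb2: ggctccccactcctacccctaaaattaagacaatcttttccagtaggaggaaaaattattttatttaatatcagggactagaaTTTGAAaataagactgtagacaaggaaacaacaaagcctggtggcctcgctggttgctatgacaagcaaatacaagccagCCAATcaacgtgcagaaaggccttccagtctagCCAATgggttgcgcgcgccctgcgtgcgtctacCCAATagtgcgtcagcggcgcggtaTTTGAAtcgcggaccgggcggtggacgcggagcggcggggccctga
Cdk1: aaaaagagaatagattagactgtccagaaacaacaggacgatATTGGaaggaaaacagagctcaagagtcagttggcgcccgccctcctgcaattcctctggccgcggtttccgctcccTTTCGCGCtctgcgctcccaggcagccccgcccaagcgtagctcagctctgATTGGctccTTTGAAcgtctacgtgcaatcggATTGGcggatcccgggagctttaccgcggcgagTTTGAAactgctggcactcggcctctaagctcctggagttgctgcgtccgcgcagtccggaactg
These lie on the minus strand at chr7:38107441-38107740 (Ccne1), chr13:100786437-100786736 (Ccnb1), chr9:70421505-70421804 (Ccnb2) and chr10:69352863-69353162 (Cdk1). Ccnb2 and Cdk1 each held 3 CCAAT matches and 2 CHR matches, and Ccnb1 held 2 CCAAT matches. Among all 32851 promoters in the RefSeq table, 37.4% held at least 1 CCAAT match, 11.7% at least 2 and 3.37% at least 3. A CHR match stood in 17.9% of promoters and at least 2 in 2.31%. The E2F letters were found in Cdk1, from position -131 counted from the start, and in Cdk2, from position -140, against 2.26% of all promoters. None of these letters stood in the Ccne1 window, which says nothing of the factors. The Cdk2 window and 1 of 2 Ccnd3 windows each held 1 CCAAT match.

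The values are upper-quartile normalised pseudo-counts, fractional numbers that the authors made from their reads, so read depth is unknown. Their sums lay between 21657342 and 21846849 in KO libraries and between 22881124 and 23734462 in WT libraries. Ptgds, the gene of L-Pgds, stood at 15.2, 4.0 and 2.94 in KO libraries 5, 7 and 8 and at 6560, 8137 and 8712 in WT libraries 1, 3 and 4. Hpgds, the gene of H-Pgds, was not low: it had 87.8, 87.3 and 104 in KO and 45.0, 47.5 and 55.0 in WT (log2 0.90, limma adjusted p = 0.00853). Which of its exons the allele lacks is not stated, so a value per gene does not check that deletion, and the KO label rests here on Ptgds. WT library 1 stood apart: its root mean square log2 distance to the other libraries was 0.529 to 0.738, against 0.317 to 0.650 for the other pairs. Among preset cell type markers, the summed values of 7 germ cell genes ranged from 20734 to 35847 in KO and from 19565 to 31375 in WT, with KO library 7 and WT library 1 highest. Singly they went both ways. Of the 7, 1 was higher in the test below (Ddx4, limma adjusted p = 0.037) and 0 lower, against 17.3% and 17.0% of all genes. Dnd1 stood at 1705 to 1840 in KO and 2024 to 4377 in WT, but was not called (limma adjusted p = 0.0531). The 6 Sertoli cell genes other than Ptgds summed to between 64906 and 87954 in KO and between 79261 and 109145 in WT, and the 5 fetal Leydig cell genes to between 48764 and 69394 in KO and between 65156 and 107076 in WT. The 5 interstitial genes summed to 28019 to 29303 in KO and 23780 to 24537 in WT, with 3 of 5 higher in the test below, against 17.3% of all genes. Tcf21 among them lay the other way, at 6750 to 7731 in KO and 8132 to 8904 in WT. Endothelial sums overlapped, at 7178 to 7506 in KO and 5481 to 7517 in WT, as did those of red blood cells (83973 to 123437 in KO, 37366 to 140611 in WT) and mesonephros (380 to 549 in KO, 305 to 739 in WT). Single genes in them were called. Endothelial Kdr was higher (1237 to 1396 in KO, 637 to 1035 in WT) and Emcn lower (900 to 988 in KO, 1017 to 1371 in WT). Lhx1 of the mesonephros list was higher (152 to 169 in KO, 44.0 to 73.6 in WT). Of the 5 red blood cell genes 0 were called. Macrophage genes summed to 776 to 883 in KO and 914 to 1214 in WT. A list of ovarian granulosa genes, of which Wnt4 and Rspo1 were called lower, summed to 2936 to 3151 in KO and 4617 to 5253 in WT, while its defining gene Foxl2 stood at 12.3 to 29.9 in KO and 28.1 to 28.9 in WT. No marker was at 0 in a library, and the part of these differences in the results below was not tested.

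Of the 10 genes, Ccnd2 and Ccne2 rose and Ccnd3 and Ccne1 fell in KO, and the other 6 did not pass the test. A trend with transcript length and GC content, described below, was then removed. With the longest transcript of each gene, none of these 4 calls held (limma adjusted p from 0.0844 to 0.72), and Ccnd3 had a change above 0. With the transcript of median length, chosen after seeing the data, Ccnd2 was called (log2 0.85, limma adjusted p = 0.00584) and Ccnd3, Ccne1 and Ccne2 were not. The test was limma's two-sided moderated test on log2(value + 1); p-values were adjusted by Benjamini and Hochberg's method across the 15116 genes that passed the filter, and 0.05 was the threshold. Across all genes 34.3% passed, 17.3% higher and 17.0% lower in KO, so 4 called among 10 is a share near the background. KO and WT libraries did not overlap for 5 of the 10 genes, against 50.3% of all genes. In bulk samples, fewer cells of a type and less RNA per cell cannot be told apart.

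**Figure D1:**
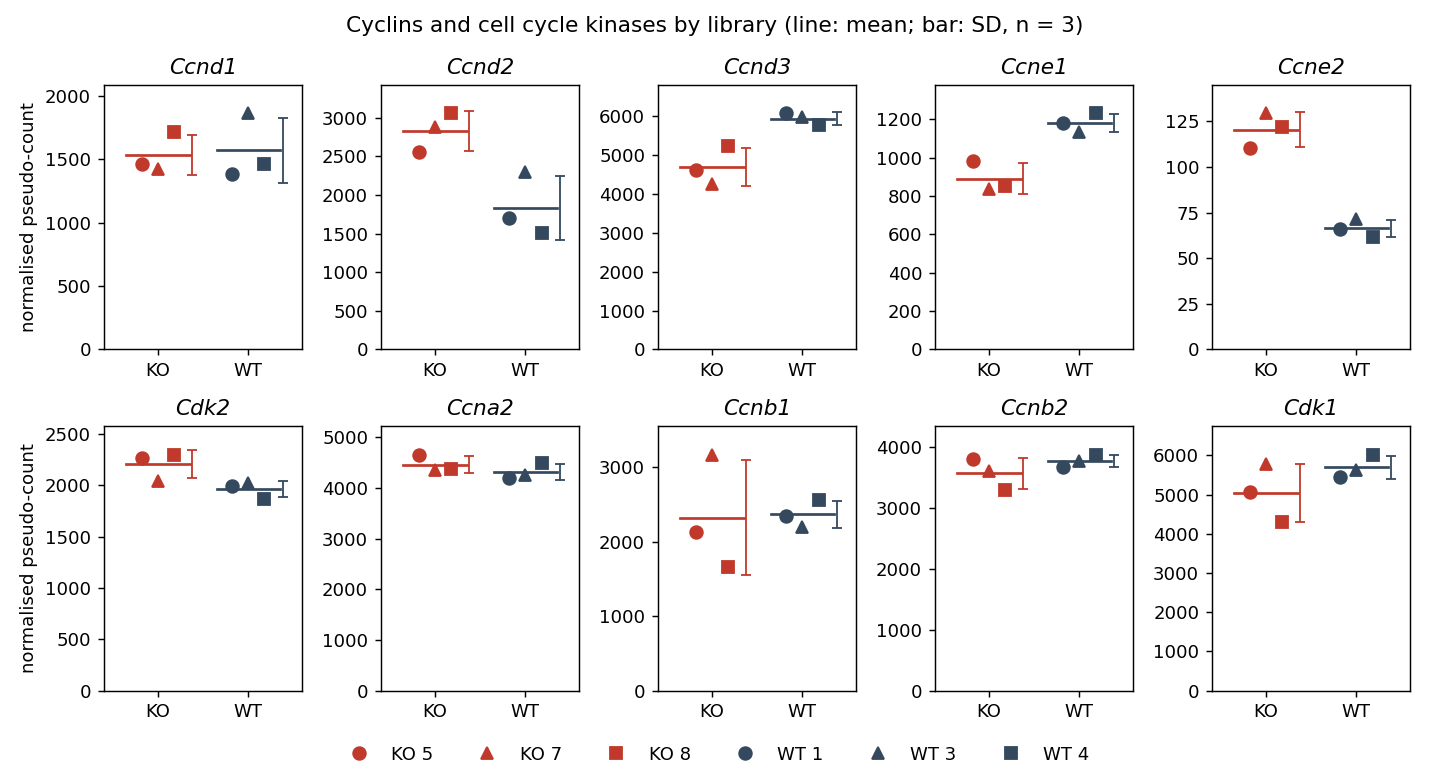
Normalised pseudo-counts of the 10 genes in each library, KO left and WT right in each panel, with each panel's axis starting at 0; lines are group means and bars SD (n = 3 each). Ccnd2 and Ccne2 points lie higher in KO and Ccnd3 and Ccne1 points lower, with no overlap, and the 3 KO points of Ccnb1 are spread from 1662 to 3167.

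Ccnd2, a D-type cyclin needed in mice for normal growth of granulosa cells and of the testis, had 2553, 2874 and 3057 in KO libraries 5, 7 and 8 and 1698, 2295 and 1504 in WT libraries 1, 3 and 4. All KO libraries were above all WT libraries, and WT library 3 was the nearest to them. The rise was 1.56-fold (log2 0.64, SE 0.14, limma adjusted p = 0.00767) and was called without each library in turn (log2 0.51 to 0.82). Its listed span on mm9, chromosome 6 from 127075727 to 127101066, shares 1660 bases with 9330179D12Rik, which stood at only 8.55 to 13.6 in KO and 6.85 to 9.07 in WT.

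Ccnd3, the D-type cyclin with the highest level here and known for its role in thymocyte growth, had 4601, 4265 and 5230 in KO libraries 5, 7 and 8 and 6072, 5970 and 5760 in WT libraries 1, 3 and 4. All KO libraries were below all WT libraries, and the coefficient of variation was 10.4% in KO and 2.68% in WT. The fall was to 0.789 of the WT level (log2 -0.34, SE 0.093, limma adjusted p = 0.0184). With the length and GC trend removed it stood at 0.042 (adjusted p = 0.72; 0.032 with the median-length transcript). It was not called without KO library 5 (adjusted p = 0.0687) or WT library 4 (0.0502), nor with values scaled to equal totals (log2 -0.24, adjusted p = 0.072) or quantile normalised (log2 -0.21, adjusted p = 0.108). RefSeq lists a pseudogene, Ccnd3-ps, that could share reads with it. Ccnd1, the D-type cyclin most often linked to mitogen signals, had 1465, 1421 and 1715 in KO and 1385, 1863 and 1463 in WT, and the groups overlapped. Its log2 change was -0.027 with a 95% interval from -0.30 to 0.25 (limma adjusted p = 0.885).

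Ccne2 had the largest change among the 10 and the lowest level. This E-type cyclin, whose loss in mice reduces male fertility, stood at 110, 129 and 122 in KO libraries 5, 7 and 8 and at 65.8, 71.3 and 61.6 in WT libraries 1, 3 and 4. The groups were well apart, the lowest KO library being above the highest WT library by more than the spread within either group. The rise was 1.81-fold (log2 0.85, SE 0.18, limma adjusted p = 0.00676) and was called without each library in turn (log2 0.80 to 0.91). Ccne2 lies on mm9 chromosome 4 from 11118501 to 11131926 and its listed span shares 5622 bases with Ints8, an Integrator complex gene with far higher values (1754, 2380 and 1986 in KO, 1638, 1590 and 1579 in WT). Ints8 also rose (log2 0.34, limma adjusted p = 0.0393), and since nothing says that reads were counted by strand, the value of Ccne2 is uncertain. Ccne1, its close relative with a partly shared role, had 982, 837 and 854 in KO and 1178, 1133 and 1231 in WT, with no overlap. It fell to 0.753 of the WT level (log2 -0.41, SE 0.098, limma adjusted p = 0.0102), and without WT library 4 the call ended (adjusted p = 0.0501).

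Set against each other within a library, Ccnd2 relative to Ccnd1 and Ccne2 relative to Ccne1 stood higher in every KO library than in any WT library. A factor that scales a whole library cancels in these ratios. The Ccnd2 to Ccnd1 ratio was 1.74, 2.02 and 1.78 in KO libraries 5, 7 and 8 and 1.23, 1.23 and 1.03 in WT libraries 1, 3 and 4, a log2 difference of 0.67 (two-sided exact permutation p = 0.1, n = 3 each). The Ccne2 to Ccne1 ratio was 0.112, 0.155 and 0.143 in KO and 0.0559, 0.063 and 0.050 in WT, a log2 difference of 1.26. Since Ccne2 was higher and Ccne1 lower in every KO library than in any WT library, that ratio had to be apart, and it is given without a test. For the D-type pair the groups did not overlap either, and 0.1 is the smallest p that 3 against 3 libraries can give. After removal of a trend with transcript length and GC content, described below, the log2 differences were 0.36 for the D-type pair and 0.63 for the E-type pair. On a scale of value per kb of transcript, Ccnd2 made up 14.5% ± 1.22 of the 3 D-type cyclins in KO and 8.19% ± 1.46 in WT (SD, n = 3 each), and Ccne2 made up 8.32% ± 1.23 of both E-type cyclins in KO and 3.61% ± 0.400 in WT. With the transcript of median length in place of the longest these shares were 32.7% ± 2.19 in KO and 20.0% ± 3.25 in WT for Ccnd2, and 2.69% ± 0.419 in KO and 1.13% ± 0.128 in WT for Ccne2, so their size depends on the transcript chosen. The per-kb sum of the D-type cyclins was 3081 ± 297 in KO and 3518 ± 166 in WT, and that of the E-type cyclins 485 ± 36.5 in KO and 612 ± 23.0 in WT (SD, n = 3 each).

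**Figure D2:**
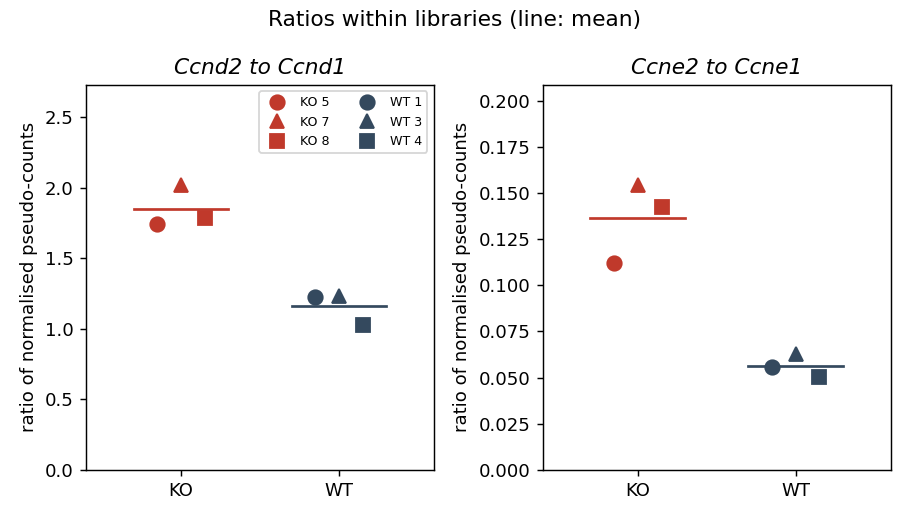
Ratio of normalised pseudo-counts of Ccnd2 to Ccnd1 (left) and Ccne2 to Ccne1 (right) in each library, KO left and WT right in each panel, on axes that start at 0; lines are group means (n = 3 each). KO points lie at 1.74 to 2.02 and WT points at 1.03 to 1.23 for the D-type pair, and at 0.112 to 0.155 and 0.050 to 0.063 for the E-type pair.

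Cdk2, the kinase partner of the E-type cyclins, whose loss in mice causes sterility through failed meiosis, did not pass the test. It had 2266, 2047 and 2301 in KO libraries 5, 7 and 8 and 1990, 2025 and 1872 in WT libraries 1, 3 and 4. KO libraries lay just above WT libraries, by a log2 difference of 0.17 with a 95% interval from -0.023 to 0.36 (limma adjusted p = 0.156). It was called higher when values were scaled to equal totals (log2 0.27, adjusted p = 0.0397) or libraries were weighted (log2 0.22, adjusted p = 0.0198). Ccna2, the A-type cyclin essential in the mouse embryo, had the smallest coefficient of variation of the 10 in KO. Its values were 4663, 4358 and 4368 in KO and 4197, 4260 and 4496 in WT, which overlap, and its coefficient of variation was 3.88% in KO and 3.65% in WT. Its log2 change was 0.048 with a 95% interval from -0.13 to 0.22 (limma adjusted p = 0.666).

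Of the mitotic genes, none passed the test. In KO the SD of log2 values of Cdk1 was larger than that of 69.7% of genes tested, and in WT larger than that of 21.2%. For Ccnb2 these shares were 31.0% in KO and 6.64% in WT. Over all genes tested, the root mean square log2 distance was 0.317 to 0.408 between KO libraries and 0.388 to 0.644 between WT libraries. Ccnb1, the B-type cyclin that mice cannot do without, had 2123, 3167 and 1662 in KO libraries 5, 7 and 8 and 2342, 2196 and 2551 in WT libraries 1, 3 and 4. KO libraries 7 and 8 lay on either side of all WT libraries, and the coefficient of variation was 33.3% in KO and 7.55% in WT. The SD of its log2 values in KO was larger than that of 94.0% of genes tested, and in WT larger than that of 36.8%. Its log2 change was -0.077 with a 95% interval from -0.50 to 0.34 (limma adjusted p = 0.775), and was -0.33 without KO library 7 (adjusted p = 0.0656) and 0.14 without KO library 8 (adjusted p = 0.544). Cdk1, the kinase of mitotic entry, had 5063, 5772 and 4292 in KO and 5440, 5625 and 6024 in WT, with the KO libraries in the same order as for Ccnb1. Its log2 change was -0.19 with a 95% interval from -0.43 to 0.062 (limma adjusted p = 0.221), and without KO library 7 it was -0.29 (adjusted p = 0.0505). The summed germ cell markers had that order in KO too, at 22694, 35847 and 20734 in libraries 5, 7 and 8. Singly, Ddx4, Dazl and Dppa3 had it, while Pou5f1, Dnd1, Mael and Tdrd1 did not. Dazl, at 8502, 16154 and 7616, weighed heavily in the sum. In WT libraries 1, 3 and 4 the germ cell sums were 31375, 19565 and 24243, an order that Ccnb1 and Cdk1 did not share; the part of germ cells in the spread was not tested. Ccnb2, a B-type cyclin dispensable in mice, had 3804, 3605 and 3291 in KO and 3673, 3776 and 3877 in WT, without the KO order of Ccnb1 (log2 -0.084, 95% interval -0.27 to 0.10, limma adjusted p = 0.464). RefSeq lists the pseudogenes Ccnb1-ps and Ccnb2-ps, and the table lists Cdkn2d with a span of 103 Mb that takes in Ccnb2, far beyond the length of any mouse gene, so that overlap is one of the listing.

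Levels between genes can be compared only per length, here as the mean value per kb of the longest protein-coding transcript, and the order depends on the transcript chosen. In KO the order ran from Ccnb2 (2330 ± 169) and Ccnd3 (2224 ± 232) through Ccna2 (1505 ± 58.5), Cdk1 (1153 ± 169), Ccnb1 (931 ± 310) and Cdk2 (916 ± 57.1) to Ccnd2 (447 ± 40.3), Ccne1 (445 ± 39.6), Ccnd1 (410 ± 42.4) and Ccne2 (40.1 ± 3.21), each as SD with n = 3. Ranges over KO libraries overlapped between Ccnb2 and Ccnd3, between Ccnb1 and each of its neighbours Cdk1 and Cdk2, and between Ccne1 and each of its neighbours Ccnd2 and Ccnd1. In WT the order was Ccnd3 (2808 ± 75.2), Ccnb2 (2466 ± 66.7), Ccna2 (1456 ± 53.2), Cdk1 (1302 ± 68.3), Ccnb1 (949 ± 71.7), Cdk2 (816 ± 33.4), Ccne1 (590 ± 24.6), Ccnd1 (420 ± 68.5), Ccnd2 (289 ± 65.1) and Ccne2 (22.0 ± 1.62), with no overlap between neighbours. With the transcript of median length, an alternative chosen after seeing the data, Cdk1 stood at 4024 ± 590 per kb in KO and 4546 ± 238 in WT, Ccnd2 at 2877 ± 259 in KO and 1864 ± 419 in WT, Ccnd3 at 5509 ± 574 in KO and 6956 ± 186 in WT, and Ccne1 at 1465 ± 130 in KO and 1942 ± 81.0 in WT (SD, n = 3 each). Ccnd2 was then above Ccnd1 in both groups, while Ccne2 was the lowest of the 10 with either transcript.

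Changes across the whole data set went with transcript length and GC content, and the 10 genes can be placed on that trend. Genes higher in KO had a median transcript length of 5188 nt and a median GC content of 45.4%, genes lower in KO 1710 nt and 55.4%, and the rest 3104 nt and 50.6%. Ccnd2 has a transcript of 6330 nt with 47.1% GC and Ccne2 one of 3006 nt with 36.3% GC, while Ccnd3 (2113 nt, 58.4%) and Ccne1 (2000 nt, 52.7%) are shorter and richer in GC. With that trend removed in each library, 12.7% of 14449 genes passed the test, and neither Ccnd2, Ccnd3, Ccne1 nor Ccne2 did. Ccne2 was at log2 0.48 (95% interval 0.12 to 0.84, limma adjusted p = 0.0844), Ccnd2 at 0.25 (adjusted p = 0.175), Ccne1 at -0.15 (adjusted p = 0.236) and Ccnd3 at 0.042 (adjusted p = 0.72). At an unadjusted p under 0.05 in limma's test, 4 of the 10 genes were then higher in KO (Ccnd2, Ccne2, Cdk2 and Ccnb2) and 1 lower. Of all 14449 genes, 1974 were higher and 2152 lower at that threshold. After adjustment 0 of the 10 were higher, against 6.07% of all genes, and 1 was lower, against 6.64%. The lower one was Cdk1, at log2 -0.44 (95% interval -0.66 to -0.21, adjusted p = 0.0228), whose longest transcript has 4375 nt. The removal depends on the transcript chosen. With the transcript of median length, which for several of these genes is a short one (1253 nt for Cdk1, 983 nt for Ccnd2), Cdk1 was at -0.15 (adjusted p = 0.247) and Ccnd2 at 0.85 (adjusted p = 0.00584). Which transcripts these gonads express was not tested.

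**Figure D3:**
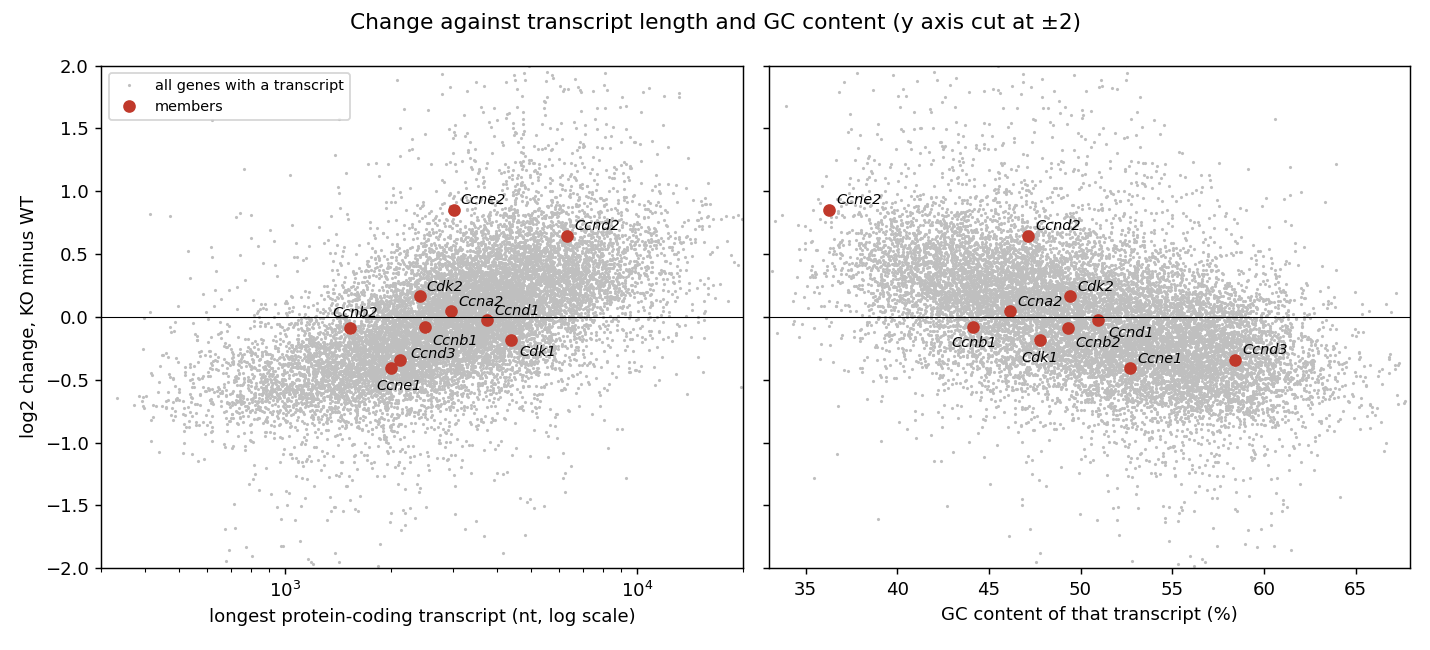
Log2 change (KO minus WT) against the length (log axis) and the GC content of the longest protein-coding transcript; grey points are genes with such a transcript, those beyond the plotted ranges not shown, and red points are the 10 genes. Ccnd2 and Ccne2 lie among long or AT-rich transcripts and Ccnd3 and Ccne1 among shorter, GC-richer ones.

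**Figure D4:**
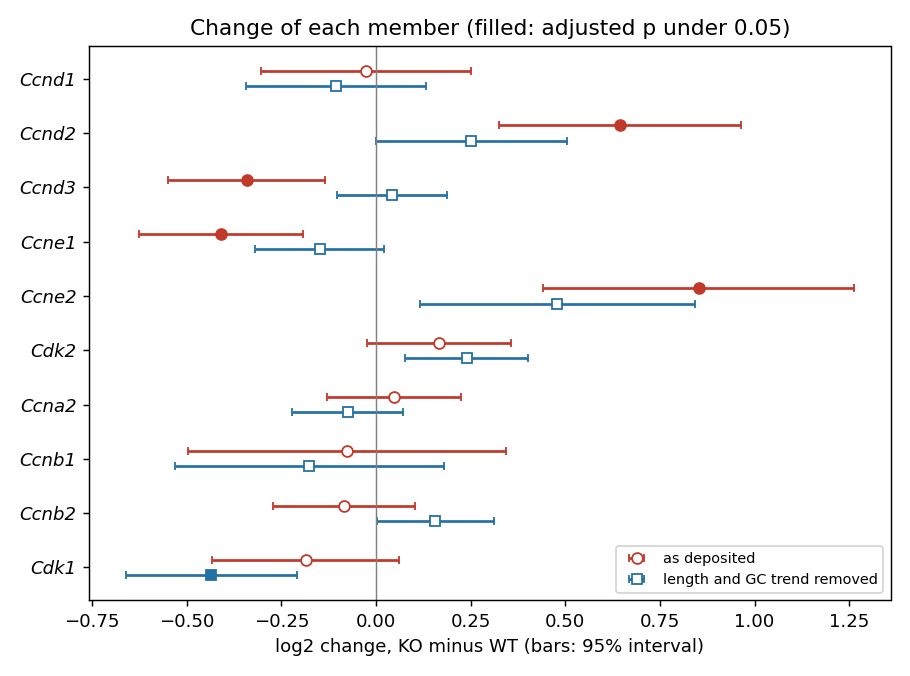
Log2 change of each gene (KO minus WT) with its 95% interval, from values as deposited (red circles) and with the length and GC trend removed (blue squares); filled symbols passed an adjusted p of 0.05. As deposited, Ccnd2 (0.64), Ccnd3 (-0.34), Ccne1 (-0.41) and Ccne2 (0.85) are filled, and after removal only Cdk1 (-0.44) is.

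Among the partners and regulators of these genes, a list of kinases, their subunits, activators and inhibitors had 1 of 12 higher and 3 lower in KO, against 17.3% and 17.0% of all genes. Its median log2 change was -0.14, against -0.030 over all genes tested. Cdk4, the kinase of the D-type cyclins, stood at 16192 ± 1690 in KO and 21936 ± 1478 in WT (SD, n = 3 each; log2 -0.44, limma adjusted p = 0.0115). Cks1b, a small subunit that binds cyclin kinases, and Pkmyt1, which inhibits Cdk1, fell by 0.34 and 0.35 on the log2 scale (limma adjusted p = 0.0197 and 0.0407). Wee1, the other kinase that inhibits Cdk1, rose by 0.34 (limma adjusted p = 0.0262). With the trend removed, none of these 4 passed (limma adjusted p from 0.0894 to 0.674). By limma's unadjusted p under 0.05, 1 of the list was then higher and 2 lower, against 1974 and 2152 of 14449 genes. After adjustment 0 were higher and 1 lower, against 6.07% and 6.64% of all genes. The lower one, named after its value was seen, was Mnat1, a subunit of the kinase that activates cyclin kinases (log2 -0.53, limma adjusted p = 0.00726). As deposited, Mnat1 was at log2 -0.098 (limma adjusted p = 0.622), so its call arose only with the removal. Its longest transcript has 3688 nt.

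In the list of E2F, MuvB and FoxM1 factors, which switch cyclin genes on and off, 5 of 17 rose and 1 fell, against 17.3% and 17.0% of all genes, with a median log2 change of 0.17. With the trend removed 1 was higher (Tfdp1) and 1 lower, against 6.07% and 6.64%. The lower one, named after its value was seen, was Rbbp4, a histone-binding MuvB subunit (log2 -0.41, limma adjusted p = 0.0143). As deposited, Rbbp4 was at log2 -0.042 (limma adjusted p = 0.772), so its call arose only with the removal. Tfdp1, a DNA-binding partner of E2F proteins, had 1330, 1157 and 1116 in KO libraries 5, 7 and 8 and 692, 867 and 669 in WT libraries 1, 3 and 4. The groups did not overlap, and the rise was 1.62-fold (log2 0.70, SE 0.12, limma adjusted p = 0.00293; 0.63 and adjusted p = 0.00945 with the trend removed). The MuvB subunits went both ways: Lin9 and Lin54 rose by 0.62 and 0.50 on the log2 scale and Lin37 fell by 0.59 (limma adjusted p = 0.0102, 0.0225 and 0.00422), and none of these 3 passed with the trend removed (adjusted p from 0.0765 to 0.733).

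Of 24 genes for ubiquitin ligases that destroy cyclins, or for proteins that act with or on these ligases, 6 rose and 8 fell. The shares of all genes were 17.3% and 17.0%, and the list had a median log2 change of -0.085. With the trend removed, 1 was higher and 8 lower by limma's unadjusted p under 0.05, against 1974 and 2152 of 14449 genes. After adjustment 0 were higher and 4 lower, against 6.07% and 6.64%. The 4 were Anapc11 and Rbx1, described next, and Anapc7 and Anapc10, named after their values were seen (log2 -0.53 and -0.54). As deposited, Anapc7 was at log2 -0.46 (limma adjusted p = 0.00642). Anapc10 was then at -0.046 (limma adjusted p = 0.878), so its call arose only with the removal. Anapc11, the catalytic RING subunit of the anaphase-promoting complex, had 3201, 2783 and 3068 in KO and 5383, 4488 and 5027 in WT. It fell by 0.72 on the log2 scale (SE 0.10, limma adjusted p = 0.0016; -0.66 and adjusted p = 0.00358 with the trend removed). Rbx1, the RING subunit of cullin ligases, fell by 0.51 (limma adjusted p = 0.00378; -0.37 and adjusted p = 0.00989 with the trend removed). Anapc13, another subunit of the complex, fell by 0.68 and Cul3, a cullin, rose by 0.51 (limma adjusted p = 0.00174 and 0.00462), while with the trend removed they stood at -0.029 and -0.015. The longest transcript has 3229 nt for Anapc11 and 727 nt for Anapc13. For all the related lists the removal is given with the longest transcript only. How far these values depend on that choice is not given.

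Of the other cyclins, most of which do not drive the cell cycle, 8 of 15 tested rose and 0 fell, against 17.3% and 17.0% of all genes. Their median log2 change was 0.31, and Ccnb3 was under the filter. By limma's unadjusted p under 0.05, 8 were higher and 0 lower, against 3344 and 3494 of 15116 genes. With the trend removed 5 were called higher and 1 lower after adjustment, against 6.07% and 6.64% of all genes. The median was then 0.12, against -0.014 over all genes. Ccnt1 and Ccnt2, subunits of the transcription elongation factor P-TEFb, rose most. Ccnt1 had 99.0, 116 and 102 in KO libraries 5, 7 and 8 and 17.9, 30.9 and 18.7 in WT libraries 1, 3 and 4, a rise of 4.65-fold (log2 2.22, SE 0.27, limma adjusted p = 0.00125). Ccnt2 had 1071, 885 and 1000 in KO and 391, 448 and 338 in WT, a rise of 2.52-fold (log2 1.33, SE 0.13, limma adjusted p = 0.000744). Both remained called with the trend removed (log2 1.72 and 0.81, limma adjusted p = 0.00516 and 0.00644). Ccnl1, a cyclin linked to splicing, rose by 0.52 on the log2 scale (limma adjusted p = 0.00262; 0.58 and adjusted p = 0.00358 with the trend removed), and Ccnj rose by 0.55 (limma adjusted p = 0.0145; 0.36 and adjusted p = 0.107 with the trend removed).

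**Figure D5:**
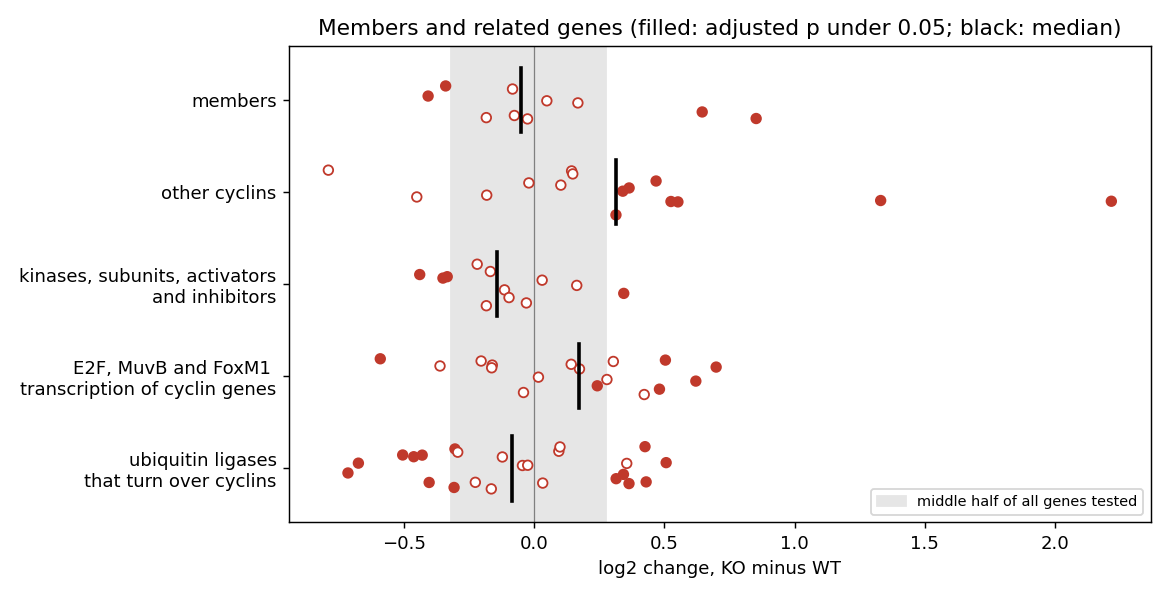
Log2 change (KO minus WT) of the 10 genes and of each related list, 1 point per gene; filled points passed an adjusted p of 0.05, black bars are medians and the grey band covers the middle 50% of all genes tested, from -0.32 to 0.28. Ccnt1 (2.22) and Ccnt2 (1.33) lie farthest to the right, among the other cyclins.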

How the data were processed

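RNA of E13.5 male mouse gonads was sequenced with a TruSeq RNA kit, per the labels' protocols. The deposited values are a signal that the authors made from reads: upper-quartile normalised pseudo-counts per gene, per the file headers. CASAVA 1.8.2, edgeR 2.6.2 and build mm9 are named in the submitters' processing notes; what each did, and the annotation behind the gene list, is not given in the sources used here. The values are fractional, so no count model was run, the depth is unknown and no interval for counting error is given. All 6 columns were matched to libraries by name, and 0 were left over.

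Genes with at least 10 in at least 3 libraries (15116 of 16862) were tested, KO minus WT, on log2(value + 1). The tool was limma 3.58.1 (R 4.3.3), with a mean-dependent prior; fold changes on this scale understate those of low genes. The Ccnd2 to Ccnd1 ratio was compared by an exact permutation test. Transcript length and GC content came from the longest protein-coding transcript in GENCODE vM21, matched by NCBI gene identifier for 14449 tested genes (95.6%); their trend was removed per library by natural splines, each with 4 degrees of freedom. Figures used matplotlib 3.10.9 in Python 3.11.15. The fit was tested on simulated data with independent normal noise. These held no trend with length or GC content, so they say nothing of calls that go with that trend. All 10 genes are named, and of each related list the 4 called genes with the largest change. Ptgds checks the KO label, while the value of Hpgds does not check its deletion. The genes, lists and tests were chosen with earlier results of these data known. P-values measure the spread between these embryos only.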

Additional observations from a re-analysis of the deposited data

How the results depend on the processing

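No paired analysis was possible because the labels give no litter for any embryo. Likeness between littermates was therefore not modelled. Across 20 alternatives, Ccnd2 was higher and called in 18, Ccne2 higher and called in 17, Ccne1 lower and called in 16 and Ccnd3 lower and called in 12. Many of these alternatives, such as other pseudocounts and filters, changed little in the fit. Ccne2 lost its call each time the length and GC trend was removed, and Ccnd2 when it was removed with the longest transcript. Ccne1 lost its call at each removal of the trend and without WT library 4. With 1 library left out, 3032 to 5041 genes were called (3032 without WT library 4, against 5180 with all libraries); of the 10 genes 2 were higher each time and 0 to 2 lower, 0 without WT library 4 (2 at adjusted p of 0.0501 and 0.0502). Over the same omissions the log2 ratio difference ranged from 0.59 to 0.72 for Ccnd2 to Ccnd1 and from 1.17 to 1.40 for Ccne2 to Ccne1. The count lower was 1 with equal totals, with quantile normalisation and with no mean-dependent prior. Equal totals moved the share of called genes that were higher from 50.4% to 67.5%, shifted the median change of all genes from -0.030 to 0.07, and turned Ccnd1, Ccnb1 and Ccnb2 to 0.075, 0.025 and 0.018. Quantile normalisation turned Ccnb2 to 0.020. After the length and GC trend was removed, 1836 genes were called (1722 also without WT library 1) and of the 10 genes 0 were higher and 1 lower, with Ccnd3 at 0.042 (0.050), Ccna2 at -0.075 (-0.090) and Ccnb2 at 0.16 (0.12), values in brackets being without WT library 1. With the median-length transcript, chosen after seeing the data, 1 was higher and 0 lower, 3473 genes were called, and Ccnd3 was at 0.032 and Ccna2 at -0.079. With 1 library left out, Ccnd1 ranged from -0.11 to 0.10 (above 0 without KO library 5, KO library 7 or WT library 3) and Ccnb1 from -0.33 to 0.14 (above 0 without KO library 8). With no counts, what depth limits cannot be given. Causes of these shifts were not tested.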
